A study of Mus musculus with 2 samples.

Results

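The genes of blood clotting and of the plasminogen system were examined in mouse primary hepatocytes that had been made to express the zinc finger transcription factor KLF14. The 32 genes were taken by symbol from the 35129 gene symbols of the expression tables: clotting factors, the fibrinogen chains, the natural anticoagulants, plasminogen with its activators and receptor, and the serpins that act on these proteases. Hepatocytes from C57BL/6 mice were infected with an adenovirus carrying KLF14 (Ad-KLF14) or with a control virus, which the sample labels call GFP (Ad-GFP) and the design text calls an empty vector. Each condition is represented by 1 RNA sequencing library, so there was no replicate check, the conditions could not be tested against each other, and each difference below describes these 2 libraries. Both groups carry an adenovirus and were cultured hepatocytes, the time after infection and the animals' age are not given in the sources used here, and uninfected cells were not analysed here.

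Clotting is a chain of serine protease zymogens, each cut by the protease before it. Tissue factor, a membrane protein that healthy hepatocytes expose little of, starts the chain with factor VII, and the contact factors can start it from another side. Both branches meet at factor X, which turns prothrombin into thrombin, and thrombin turns fibrinogen into fibrin, which plasmin later dissolves. The hepatocyte makes most of the circulating factors and their inhibitors, whereas tissue factor, thrombomodulin, the plasminogen activators and the urokinase receptor are made in many cell types, and factor VIII comes mainly from sinusoidal endothelium. Fibrinogen is also an acute phase protein, induced in the liver by interleukin 6.

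Levels are given in FPKM (fragments scaled to gene length and to library size, per the file names), with Ad-KLF14 before Ad-GFP. Read totals of 11151711 for Ad-KLF14 and 11311344 for Ad-GFP were recovered from the steps of the FPKM values, and the bounds in parentheses are exact 95% Clopper-Pearson bounds from each gene's reads, or from a lower limit of them where a number is given as "at least" and for other genes with no close transcript length. These bounds cover counting error only and leave out any difference between cultures. A gene was kept if the mean of its 2 levels reached 1 FPKM, which 12419 did. The limit of 2-fold was judged on log2(FPKM + 1), a scale that shrinks differences of low genes, while ratios and folds are plain ratios of FPKM. Klf14 stood at 13164 against 0.298 FPKM, with the virus-borne and the mouse gene counted together. Albumin was at 4172 against 5115 FPKM, and all 6 hepatocyte markers found in the tables were above 1 FPKM in both libraries, with 0 of them at least 2-fold apart, though the urea cycle enzyme gene Cps1 was low, at 2.80 against 4.91 FPKM.

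Of the 32 genes, 30 passed the filter, and F8 and Tfpi did not. Among the 30, 1 gene was at least 2-fold higher with Ad-KLF14 (F10), where 6.37% of all 12419 genes were, and 3 were at least 2-fold lower (F3, Tfpi2 and Plau), where 8.99% were. Together 13.3% of the 30 genes were at least 2-fold apart, beside 15.4% of all genes, a share near the background. The median log2 ratio was -0.16, beside -0.03 over all genes, and 22 of the 30 lay below 0, where 51.7% of all genes did. With each library scaled to the same sum without Klf14, 17 of the 30 lay below 0. The share of all genes below 0 was not taken under that scaling, so 51.7% is no background for this count. The median of the 30 was then -0.07, beside 0.05 over all genes. The members passed through the mean of both libraries, so these counts cover the genes that were measurable here.

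**Figure D1:**
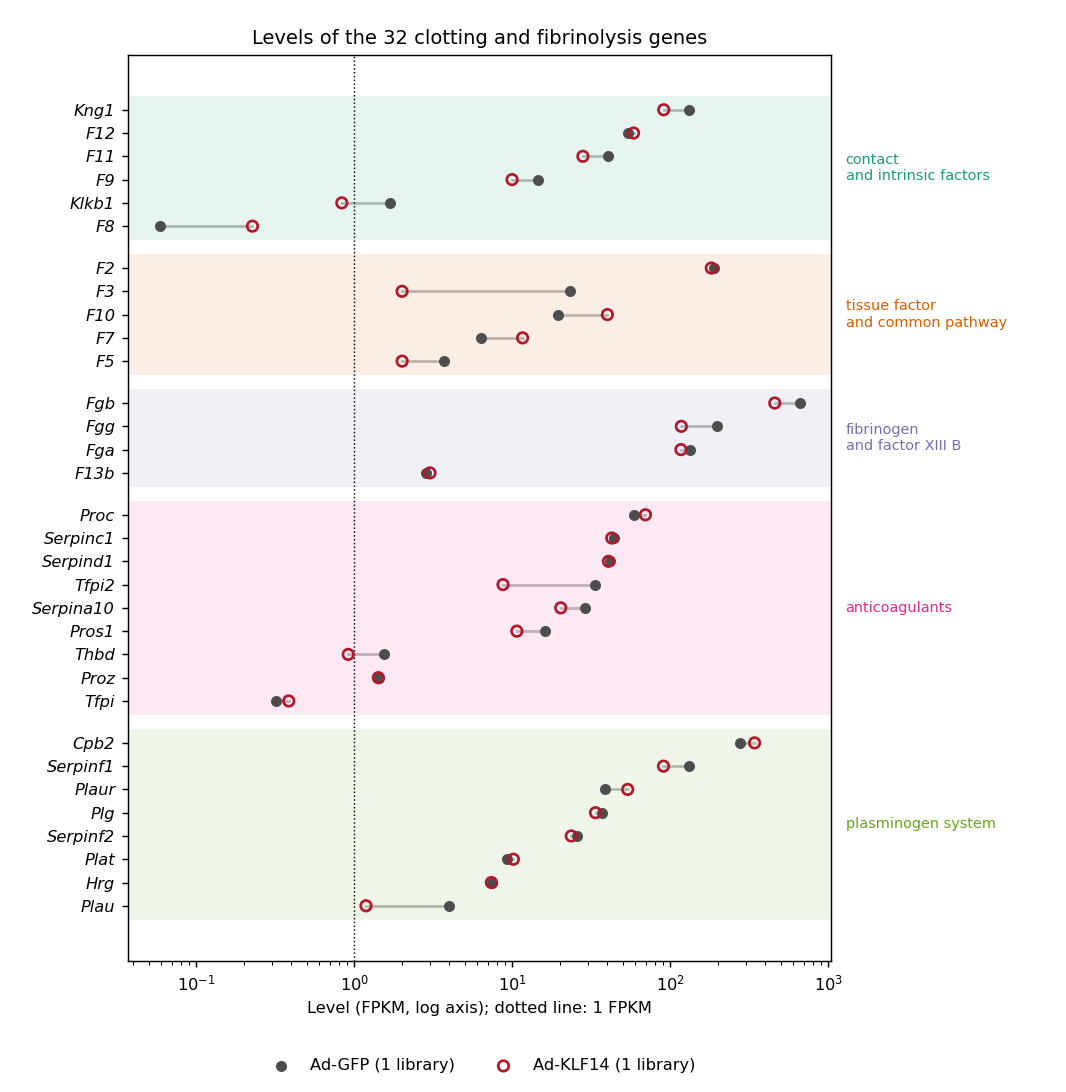
Level in FPKM (log axis) of each of the 32 genes in the Ad-KLF14 library (open red circles) and the Ad-GFP library (filled grey circles), in groups by role, with a grey line joining both values and a dotted line at 1 FPKM. F3, Tfpi2 and Plau have long lines with Ad-KLF14 on the left, at 2.01, 8.74 and 1.19 FPKM, and F8 and Tfpi lie below 1 FPKM in both libraries.

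The genes were also grouped by where their proteins are mainly made, from textbook knowledge. Of the 24 genes made mainly in hepatocytes, all passed the filter, 23 were under 2-fold and 20 were within 1.5-fold, where 62.3% of all genes were. Their summed level was 1803 against 2122 FPKM, and their log2 ratios ran from -0.75 for Fgg to 1.01 for F10. Of the 8 genes made in many or in other cells, 6 passed, and F3, Tfpi2 and Plau among them were at least 2-fold lower. Thbd was under 2-fold lower, and Plat and Plaur lay above 0. The difference between the 2 sets of genes was not tested.

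**Figure D2:**
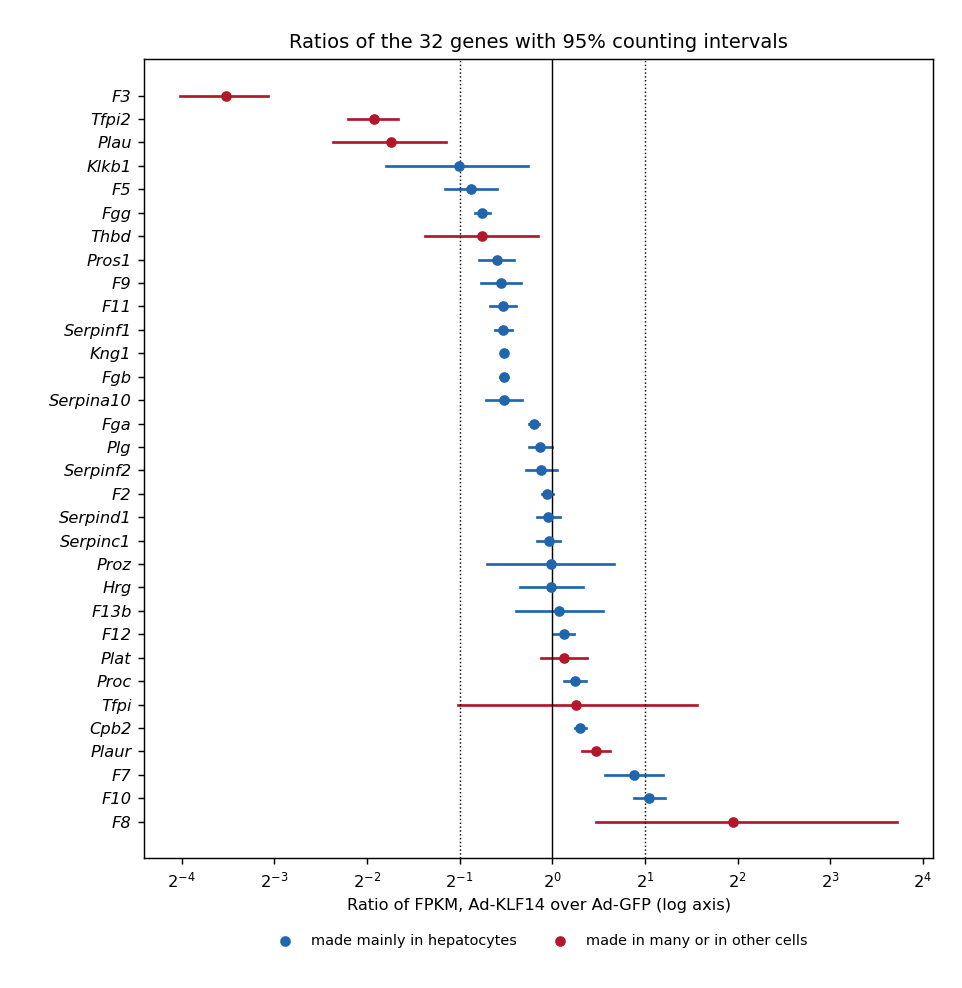
Ratio of FPKM, Ad-KLF14 over Ad-GFP (log axis), of the 32 genes in order, with 95% counting intervals, and with dotted lines at 2-fold on either side. Kng1 is drawn without an interval because its reads may be shared with a near copy. F3 stands lowest at 0.0869, apart from Tfpi2 at 0.263 and Plau at 0.299, and of the intervals drawn, with F3 on 42 and 490 reads, that of F8 is the widest, from 1.39 to 13.2.

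Tissue factor, F3, the receptor that starts clotting, had the lowest ratio of the 32 genes. Its level was 2.01 FPKM from 42 reads with Ad-KLF14 and 23.1 FPKM from 490 reads with Ad-GFP, 11.5-fold lower (bounds 8.38 to 16.2). On log2(FPKM + 1) the difference was -3.00, which placed F3 at rank 11 from the lowest among all 12419 genes. In the Ad-GFP library F3 was the more abundant partner of its ligand gene F7, with a quotient of F3 over F7 of 3.65, and with Ad-KLF14 that quotient was 0.173. The FPKM steps alone give at least 3 and 35 reads over 134 bases. These were multiplied by 14, the highest multiple of any member, to reach 1876 bases, 0.214% from a reference transcript. The multiple was chosen for coming closest to a transcript length, so this small gap is no separate check of it. On 3 and 35 reads the bounds of the fold would be 3.63 to 58.5, so the width of the narrower bounds rests on that multiple.

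The 250 bases before the F3 start site are shown because F3 stood furthest apart of the genes examined. They come from RefSeq in the GRCm38.p6 build, as do the sequences further down, whereas the submitters' processing notes name mm8 for the reads. Searched on both strands were GGGCGG and CACCC (the GC box and CACCC box, the kinds of site that KLF and SP factors bind), TGANTCA (AP-1), CTGGGA (interleukin 6 response element) and CAAAGTC (HNF4). Matches are in capitals, and capitals that run together can hold overlapping motifs.
F3 (chr3:121723287-121723536, plus strand): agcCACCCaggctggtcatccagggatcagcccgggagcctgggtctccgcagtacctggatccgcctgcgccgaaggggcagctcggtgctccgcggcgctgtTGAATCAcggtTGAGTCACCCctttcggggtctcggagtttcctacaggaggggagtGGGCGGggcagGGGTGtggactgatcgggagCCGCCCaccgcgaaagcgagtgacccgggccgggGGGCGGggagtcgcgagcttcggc
This window holds 3 matches to GGGCGG, 3 to CACCC and 2 to TGANTCA. One TGANTCA match, 135 bases before the start site, overlaps the CACCC match that begins 130 bases before it. Of all 32851 promoter windows of this length, 32.7% hold GGGCGG, 52.0% CACCC and 6.75% TGANTCA, so GC and CACCC boxes are common. A match describes the letters and shows no binding.

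The other genes upstream of thrombin went both ways. Factor X, F10, where both branches of the chain meet, was at 40.03 FPKM from at least 912 reads with Ad-KLF14 and 19.4 FPKM from at least 448 reads with Ad-GFP, a ratio of 2.06 (bounds 1.84 to 2.32). Its log2 ratio of 1.01 was just past the limit of 2-fold. Factor VII, F7, the protease that tissue factor binds, was at 11.6 FPKM from 241 reads against 6.32 FPKM from 133 reads, a ratio of 1.84 (bounds 1.48 to 2.29), and its log2 ratio of 0.79 was the next highest after F10. Factor V, F5, the cofactor of factor X, was at 2.01 against 3.68 FPKM, 1.83-fold lower (bounds 1.51 to 2.22). Prothrombin, F2, was the most abundant of this group and lay close in both libraries, at 182 against 189 FPKM, and the interval of its ratio of 0.964 held 1 (0.923 to 1.01).

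F7, F10 and Proz follow each other on chromosome 8 in RefSeq's annotation of GRCm38.p6, with 0 coding genes between neighbours. The first 2 were higher with Ad-KLF14, whereas Proz, the cofactor of the inhibitor of activated factor X, lay at 1.42 against 1.44 FPKM, on at least 38 and 39 reads (ratio 0.988, bounds 0.615 to 1.59). The windows before F7 and F10 are shown because these neighbours had the highest ratios among the hepatocyte-made genes.
F7 (chr8:13025784-13026033, plus strand): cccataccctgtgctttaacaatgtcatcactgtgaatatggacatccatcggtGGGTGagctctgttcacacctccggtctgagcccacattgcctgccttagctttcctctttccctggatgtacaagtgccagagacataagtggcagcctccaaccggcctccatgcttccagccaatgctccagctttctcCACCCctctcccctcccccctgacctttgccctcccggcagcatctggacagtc
F10 (chr8:13037058-13037307, plus strand): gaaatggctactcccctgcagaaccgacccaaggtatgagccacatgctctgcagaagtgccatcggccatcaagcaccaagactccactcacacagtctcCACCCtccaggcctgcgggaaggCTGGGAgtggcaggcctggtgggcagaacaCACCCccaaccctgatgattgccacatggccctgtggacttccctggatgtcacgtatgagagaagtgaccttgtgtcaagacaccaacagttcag
Each holds 2 matches to CACCC and 0 to GGGCGG, and F10 also holds 1 match to CTGGGA.

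Contact and intrinsic factors were lower in 4 of the 5 that passed the filter, each by less than 2-fold on log2(FPKM + 1), with a median of -0.52, and the same 4 lay below 0 under each scaling tried. Factor XI, F11, which activates factor IX, was at 28.0 against 40.6 FPKM (1.45-fold lower, bounds 1.31 to 1.60). Factor IX, F9, the protease lacking in haemophilia B, was at 9.97 against 14.6 FPKM (1.47-fold lower, bounds 1.26 to 1.70). Plasma prekallikrein, Klkb1, the neighbour of F11 on chromosome 8, was at 0.834 against 1.68 FPKM from at least 23 and 47 reads, and its plain ratio was 2.01-fold lower (bounds 1.20 to 3.48). Factor XII, F12, which starts the contact branch, was the exception and lay at 58.6 against 53.8 FPKM (ratio 1.09, bounds 1.01 to 1.18).

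The kininogen gene Kng1, whose product carries prekallikrein and releases bradykinin, was at 91.0 against 131 FPKM. It has a near copy, Kng2, so the share of reads given to each is uncertain and no interval is given. Kng1 and Kng2 summed to 209 against 231 FPKM, and without Kng1 the contact and intrinsic factors were lower in 3 of 4, with a median log2 ratio of -0.51. Factor VIII, F8, the cofactor of factor IX, was listed at 0.227 FPKM from at least 19 reads and 0.0589 FPKM from at least 5 reads. The ratio of 3.85 has an interval from 1.39 to 13.2, and both levels were far below those of the other intrinsic factors.

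All 3 fibrinogen chains were lower with Ad-KLF14, and they are the most abundant group here, with 693 against 990.4 FPKM in sum. The B-beta chain gene Fgb was at 459 against 658 FPKM (1.43-fold lower, bounds 1.39 to 1.48) and held rank 93 by mean level among all 12419 genes. The gamma chain gene Fgg was at 118 against 198 FPKM (1.69-fold lower, bounds 1.60 to 1.78). The A-alpha chain gene Fga was at 117 against 134 FPKM (1.15-fold lower, bounds 1.10 to 1.19), the least of the 3, and its interval does not overlap those of the other chains. All 3 lay below 0 under each scaling tried.

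Fibrinogen is assembled from equal numbers of its chains, and the transcripts were unequal in both libraries. Per length, Fgb made up 66.2% of the summed FPKM of the chains with Ad-KLF14 and 66.4% with Ad-GFP. The share of Fga was 16.9% against 13.5%, and that of Fgg 17.0% against 20.04%. As listed, Fga and Fgg were nearly level with Ad-KLF14, and Fgg was the more abundant with Ad-GFP. The lengths implied by the FPKM steps were 30.3% (Fga), 58.7% (Fgb) and 10.1% (Fgg) from the nearest reference transcript. The shares between chains rest on the gene models used, which are not given. In the ratio of each chain between the libraries the length cancels, but which reads were counted still rests on the model. F13b, the carrier subunit of the factor XIII that crosslinks fibrin, lay at 3.02 against 2.86 FPKM, on 80 and 77 reads (ratio 1.05, bounds 0.761 to 1.46).

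The fibrinogen genes lie side by side on chromosome 3, with 0 coding genes between neighbours, and their windows are shown because the 3 genes are known to be induced together by interleukin 6.
Fga (chr3:83025903-83026152, plus strand): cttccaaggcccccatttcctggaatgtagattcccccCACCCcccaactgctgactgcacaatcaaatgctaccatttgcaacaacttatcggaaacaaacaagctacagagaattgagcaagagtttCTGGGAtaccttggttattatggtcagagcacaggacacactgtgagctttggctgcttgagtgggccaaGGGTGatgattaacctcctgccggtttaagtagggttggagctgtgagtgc
Fgb (chr3:83049864-83050113, minus strand): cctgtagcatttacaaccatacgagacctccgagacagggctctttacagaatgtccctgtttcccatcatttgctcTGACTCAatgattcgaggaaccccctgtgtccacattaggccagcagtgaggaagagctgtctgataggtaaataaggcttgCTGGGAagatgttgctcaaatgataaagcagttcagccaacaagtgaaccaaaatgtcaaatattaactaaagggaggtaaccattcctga
Fgg (chr3:83007474-83007723, plus strand): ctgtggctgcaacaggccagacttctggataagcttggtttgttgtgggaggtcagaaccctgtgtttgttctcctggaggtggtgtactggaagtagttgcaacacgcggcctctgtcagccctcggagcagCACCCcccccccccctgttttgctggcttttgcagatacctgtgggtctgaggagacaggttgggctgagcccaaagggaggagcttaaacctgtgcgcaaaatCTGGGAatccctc
Each window holds 1 match to CTGGGA, a motif found in 27.0% of all windows. Fga holds 2 matches to CACCC, Fgg 1 and Fgb 0, and GGGCGG is in none of these windows.

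Anticoagulant genes held 1 gene far apart. Tfpi2, a Kunitz inhibitor of plasmin and other serine proteases that is deposited in the matrix, was at 8.74 FPKM from at least 147 reads against 33.2 FPKM from at least 567 reads, 3.80-fold lower (bounds 3.17 to 4.59). Its relative Tfpi, which blocks tissue factor with factor VII, was listed at 0.385 against 0.321 FPKM from at least 13 and 11 reads, and so no difference could be detected at this depth (ratio 1.20, bounds 0.496 to 2.96). Thrombomodulin, Thbd, the receptor that turns thrombin towards protein C, was at 0.917 against 1.55 FPKM from 38 and 65 reads (1.69-fold lower, bounds 1.11 to 2.59).

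The inhibitors that hepatocytes secrete lay closer together. Antithrombin, Serpinc1, was at 42.7 against 43.8 FPKM and heparin cofactor II, Serpind1, at 40.7 against 41.8 FPKM, and both intervals held 1. Protein C, Proc, which cuts the activated factors V and VIII, was at 69.7 against 58.9 FPKM (ratio 1.18, bounds 1.09 to 1.28), while its cofactor protein S, Pros1, was at 10.7 against 16.2 FPKM (1.51-fold lower, bounds 1.33 to 1.72). Serpina10, the inhibitor of factor X that works with protein Z, was at 20.3 against 29.1 FPKM (1.43-fold lower, bounds 1.25 to 1.65). Of the 8 anticoagulants that passed the filter 7 lay below 0 as deposited, but 4 did with each library scaled to the same sum, since Serpinc1, Serpind1 and Proz were within a few percent of equality.

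In the plasminogen system, the activator urokinase and its receptor went in opposite directions. Urokinase, Plau, was at 1.19 FPKM from 31 reads against 3.96 FPKM from 105 reads, 3.34-fold lower (bounds 2.22 to 5.16). Its receptor gene Plaur was at 53.8 against 38.7 FPKM (ratio 1.39, bounds 1.25 to 1.54), and the quotient of Plaur over Plau was 45.3 with Ad-KLF14 and 9.77 with Ad-GFP. The other activator gene, Plat, lay at 10.2 against 9.32 FPKM, with bounds that held 1 (ratio 1.09, bounds 0.920 to 1.29).

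Plasminogen itself, Serpinf2 and Hrg lay near equality, whereas Cpb2 was higher and Serpinf1 lower with Ad-KLF14. Plasminogen, Plg, was at 33.7 against 36.8 FPKM (ratio 0.915, bounds 0.841 to 0.996). The plasmin inhibitor Serpinf2 was at 23.6 against 25.7 FPKM (ratio 0.922, bounds 0.822 to 1.03), and histidine-rich glycoprotein, Hrg, which binds plasminogen and heparin, at 7.38 against 7.43 FPKM (ratio 0.993, bounds 0.783 to 1.26). Cpb2, the carboxypeptidase that protects fibrin from plasmin, was the second most abundant of the 32 genes after Fgb and was at 342 against 277 FPKM (ratio 1.23, bounds 1.19 to 1.28). Serpinf1, a serpin next to Serpinf2 on chromosome 11 that is known as a factor against vessel growth, was at 90.6 against 131 FPKM (1.44-fold lower, bounds 1.35 to 1.54).

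**Figure D3:**
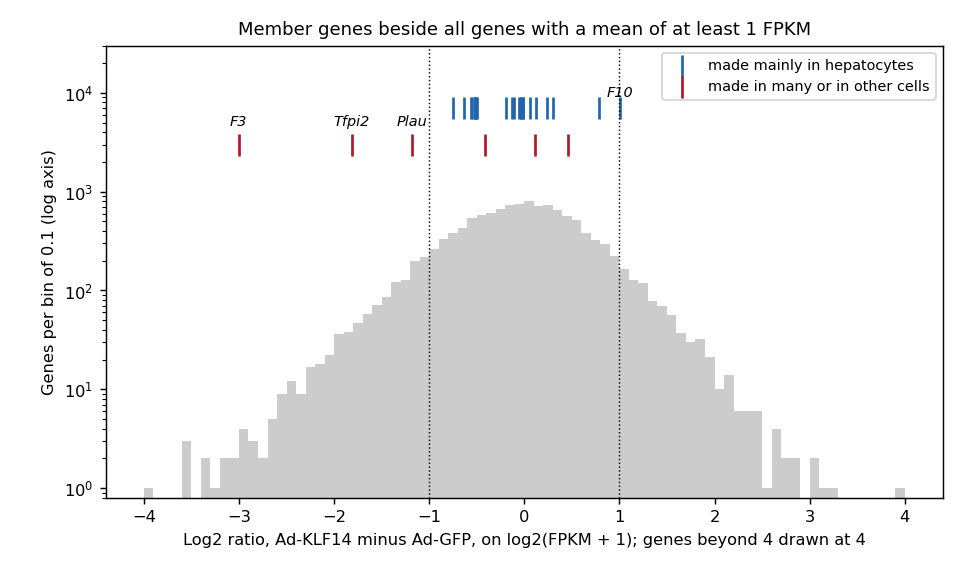
Histogram of log2 ratios of Ad-KLF14 over Ad-GFP, taken on log2(FPKM + 1), of the 12419 genes kept (grey, log axis for the number of genes), with ticks for the 30 genes that passed, blue for those made mainly in hepatocytes and red for the others. The blue ticks lie between -0.75 and 1.01, and F3 at -3.00 is in the sparse left tail.

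Of the 7 vitamin K-dependent proteins (F2, F7, F9, F10, Proc, Pros1 and Proz), 3 genes lay above 0 and 4 below, with a median of -0.01. Of all genes, 48.3% lay above 0. F2 and Proz were close to 0 and lay above it with each library scaled to the same sum without Klf14. The gene of the carboxylase that modifies them, Ggcx, was at 1.98 against 2.20 FPKM (ratio 0.902, bounds 0.634 to 1.28). Vkorc1, which recycles vitamin K, was at 36.7 against 23.9 FPKM (ratio 1.54, bounds 1.28 to 1.84), and its paralogue Vkorc1l1 was at 11.7 against 20.6 FPKM (1.76-fold lower, bounds 1.43 to 2.17). Lman1 and Mcfd2, the receptor pair that exports factors V and VIII from the endoplasmic reticulum, had ratios of 1.44 and 1.34. F5 itself was lower, and F8 was higher but did not pass the filter, at 0.227 against 0.0589 FPKM.

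Another 29 genes of clotting and fibrinolysis were chosen for their role, and 18 of them passed the filter. Of these, 4 were at least 2-fold lower and 0 reached 2-fold higher, so that 22.2% were apart, beside 15.4% of all genes. The median log2 ratio was -0.26, beside -0.03. Vitronectin, Vtn, an adhesive plasma protein made in hepatocytes, was at 89.2 against 98.7 FPKM (1.11-fold lower).

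The 4 genes that were at least 2-fold lower act at the cell surface or inhibit proteases. Serpine2, an inhibitor of thrombin, was 2.96-fold lower (3.71 against 10.97 FPKM), and F2r, the thrombin receptor, was 2.27-fold lower (10.4 against 23.6 FPKM). Lrp1, the endocytic receptor that clears tissue plasminogen activator, was 2.20-fold lower but did not reach the limit with each library scaled to the same sum, with or without Klf14 (-0.96 on the log2 scale without it), which left 3 of the 4. Serping1, the C1 inhibitor that also blocks kallikrein and factor XII, was 2.18-fold lower (147 against 319 FPKM). Vwf, the platelet adhesion factor of endothelium, had 4 reads against 1, and F13a1, the catalytic subunit of factor XIII, had 1 read against 2.

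Of 8 transcription factors and interleukin 6 signal genes known to act on these genes in hepatocytes, a chosen subset, 7 lay above 0, where 48.3% of all genes did. Onecut1, which encodes HNF6, was at 3.10 against 0.388 FPKM from at least 63 and 8 reads (ratio 7.99, bounds 3.82 to 19.3). Cebpa, at 73.9 against 36.5 FPKM, was just under 2-fold on log2(FPKM + 1). Hnf4a, Foxa2 and Cebpb had ratios of 1.30, 1.51 and 1.07. Of the genes that carry the interleukin 6 signal, Stat3 had a ratio of 1.45 and the receptor gene Il6ra 1.76, while the shared chain Il6st was 1.54-fold lower.

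**Figure D4:**
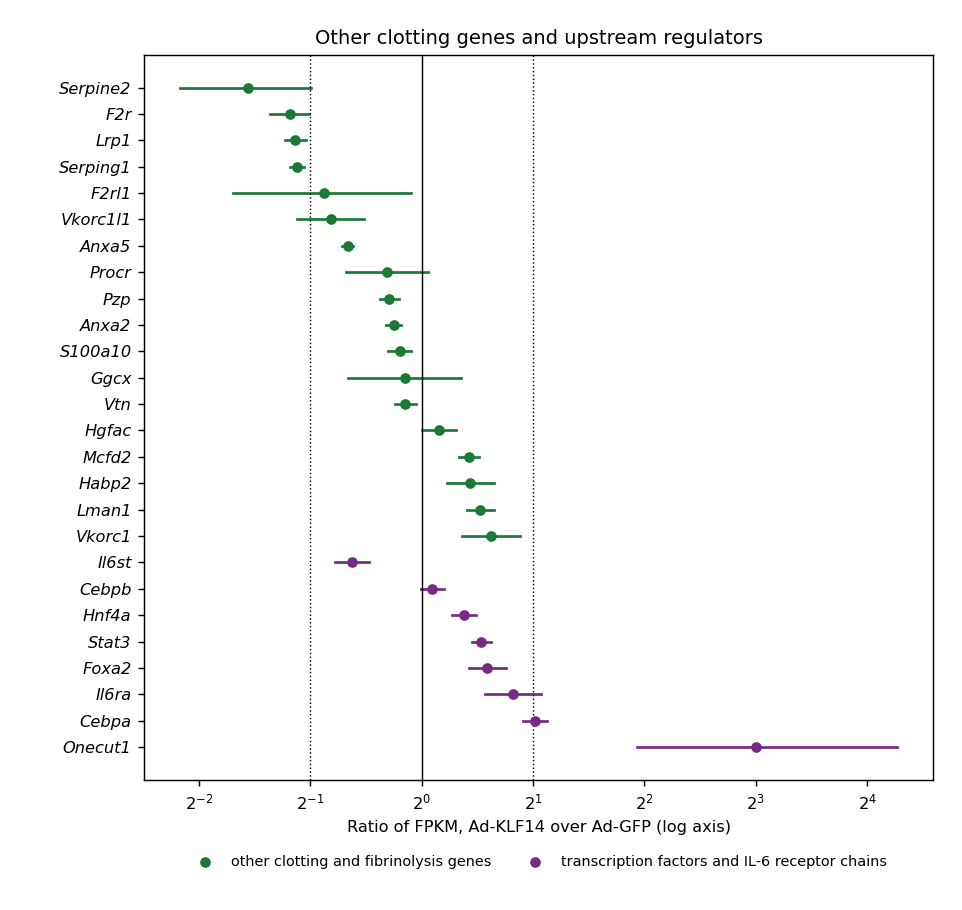
Ratio of FPKM, Ad-KLF14 over Ad-GFP (log axis), with 95% counting intervals, of the 18 other clotting and fibrinolysis genes that passed the filter (green) and of 8 transcription factors and interleukin 6 pathway genes (purple), with dotted lines at 2-fold. Serpine2 stands lowest at 0.338, and Onecut1 highest at 7.99.

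Markers of other cells are given here for F3, Tfpi2, Plau, Thbd and Plaur, which such cells also make. In bulk RNA, fewer cells of a type and less RNA per cell cannot be told apart. Kupffer cell and macrophage markers summed to 405 against 426 FPKM over 8 genes, with Cd14, which hepatocytes also make, at 217 against 306 FPKM, Cd68 at 160.3 against 71.1 FPKM and Mpeg1 at 17.1 against 40.1 FPKM. Emr1 was at 4.09 against 2.78 FPKM, Marco at 5.10 against 4.50 FPKM and Csf1r at 1.04 against 1.05 FPKM. Clec4f and Timd4, also Kupffer cell markers, were below 1 FPKM in both libraries. Endothelial markers summed to 9.10 against 10.8 FPKM over 9 genes, but to 8.11 against 6.97 FPKM over the 8 without Oit3, which was at 0.990 against 3.87 FPKM. Pecam1, another endothelial marker, was at 2.03 against 1.12 FPKM. Stellate cell and fibroblast markers summed to 2.48 against 3.55 FPKM over 8. Cholangiocyte markers summed to 3.46 against 6.26 FPKM over 5, with Sox9 at 2.88 against 4.26 FPKM, Krt19 at 0.196 against 1.74 FPKM, Epcam at 0.392 against 0.257 FPKM, and Krt7 and Cftr at 0 in both. Platelet markers summed to 10.3 against 11.97 FPKM over 5 genes, most of it Pf4 at 9.46 against 9.92 FPKM, while Itga2b was at 0.652 against 1.77 FPKM. Mesothelial markers summed to 0.115 against 0.115 FPKM over 3. The part of these other cells in the lower levels of F3, Tfpi2 and Plau was not tested.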

How the data were processed

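Total RNA of both infected hepatocyte cultures was made into libraries with an Illumina TruSeq kit, per the labels' protocols. For each library the authors deposited a table of FPKM values. Bowtie 0.12.2 and the mm8 build are named in the submitters' processing notes. Gene models, the counting rule and strand use are not given in the sources used here, and the design text mentions retina and triplicates, so parts of it may belong to another study.

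Reads were recovered from the FPKM values. Genes with equal reads in both libraries fixed the ratio of the totals, which is that of 1239079 to 1256816. A whole factor of 9 was chosen because 530 of 3350 genes then had a length that divides a GENCODE M21 transcript length exactly, beside at most 157 at factors up to 60 that are no multiple of 9. Each value times its total is a fraction of whole reads over length. It was raised to a multiple only where the length then came within 1% of a transcript, and is otherwise a lower limit of the reads. All 32 members gave whole reads, 17 of them with such a length. In a simulation of Ad-KLF14 against Ad-GFP with 15080 genes, both totals were recovered. Of the intervals, computed from the simulated reads and not from recovered ones, 95.9% held the true ratio. The simulated totals were set to multiples of 9, and lengths were drawn from the transcript lengths also used for the recovery. Recovery for members without a close transcript length was therefore not simulated. No split reads were simulated.

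Differences were taken on log2(FPKM + 1), with a pseudocount of 1 and Ad-GFP subtracted from Ad-KLF14. Genes named were all members, the companion genes at least 2-fold apart, and fixed regulators and cofactors (Ggcx, Vkorc1, Lman1, Mcfd2 and Vtn). Vkorc1l1, Vwf, F13a1 and some cell type markers were named after their values were seen. The 32 members, the companion genes and the motifs were chosen with earlier results of these data known, and some companion genes, regulators and motifs are not reported here. RefSeq promoters were used for 25 members, with 28 windows. Windows on chromosome 18, where Proc lies, were left out for the members but kept in the share of all windows. Plau was among the members without a window. Alternatives covered pseudocounts, filters, scaling and the fold limit. Scripts used Python 3.11.15, numpy 2.4.6, pandas 2.3.3 and scipy 1.17.1.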

Additional observations from a re-analysis of the deposited data

How the results depend on the processing

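No paired analysis was possible because each condition has 1 library, and for the same reason no replicate could be left out. With a pseudocount of 5 FPKM, 295 of all genes were at least 2-fold higher and 467 lower, beside 791 and 1117 with a pseudocount of 1. Of the members 0 were then higher, and of the companion genes 1 lower. At a limit of 1.5-fold, 2079 of all genes were higher and 2598 lower, 2 members were higher and 5 lower, and 1 companion gene was higher. Scaling to the same sum without Klf14 moved the members' median log2 ratio to -0.069, beside 0.054 over all genes. Other counts stayed within 1.5 times, and the other medians within their counting bounds or, over all genes, within 0.1, under the remaining alternatives (pseudocount of 0.1, no filter, a mean of at least 5 FPKM, trimmed mean, upper quartile, same sum, plain ratio). The largest shift of the median of all genes under a scaling was 0.08. Of 294 values of members under alternatives, 14 had the opposite sign, all of Proz, Hrg, Serpinc1, Serpind1 or F2, and 0 were of F3, Tfpi2, Plau or F10. The log2 ratio of F3 was -2.00 with a pseudocount of 5 and -3.52 as a plain ratio, and that of Plau was -0.53 with a pseudocount of 5. Leaving Kng1 or the endothelial marker Oit3 out was chosen after seeing the data. Depth may limit F8, Tfpi, Proz and Klkb1, whose lower limit of reads was under 50 in each library. It may also limit F3, for which the FPKM steps alone gave at least 3 and 35 reads, before the multiple of 14. In 2000 bases, 3 reads are worth 0.134 FPKM with Ad-KLF14.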

Other observations

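Kng2, named after its values were seen, was at 118 against 100.2 FPKM (ratio 1.17), while its near copy and neighbour Kng1 was at 91.0 against 131 FPKM (ratio 0.696). Hrg, on the other side of Kng2 on chromosome 16, had a ratio of 0.993. The lengths implied by the FPKM steps were 4598 bases for Kng1 and 4610 for Kng2, over 30% above every reference transcript of Kng1, and how the reads of the pair were divided was not tested.

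TGANTCA was found in 6 of the 28 promoter windows of members (21.4%), in F2, F3, Fgb, Hrg, Plaur and Tfpi2, beside 6.75% of all windows. These 6 genes had log2 ratios from -3.00 for F3 to 0.46 for Plaur. GGGCGG was in 7 of the 28 windows (25.0%), beside 32.7% of all windows, and CACCC in 16 (57.1%), beside 52.0%. CTGGGA was in 10 of them (35.7%), beside 27.0%, and CAAAGTC in 1 (3.57%), beside 3.84%.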
